A study of Mus musculus with 12 samples.

Results

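Fibrotic fibroblasts are scar-forming mesenchymal cells that appear in the injured lung and are marked by the secreted protein Cthrc1. Their marker genes other than collagens are described here in whole lung: Cthrc1, Adam12, Lrrc15, Fap and Ltbp2. They were found by their symbols in the deposited table, which gave 5 genes of 35599. Lungs were sequenced from 3 groups of mice with 4 libraries each, at the endpoint of the model. ND-RHL mice were given bleomycin, which scars the lung, and the bacterial product lipopolysaccharide, and were then treated with liposomes carrying nintedanib and dexamethasone and coated with hyaluronic acid and RGD peptides. Nintedanib blocks the tyrosine kinases of several growth factor receptors, and dexamethasone is a synthetic glucocorticoid. AE-PF mice received the same bleomycin and lipopolysaccharide challenge and no treatment, as a model of an acute exacerbation of pulmonary fibrosis, and saline mice were the controls. Strain, age, sex, doses and times are not stated in the sources used here. Whether each library came from its own animal is not stated either, so a p-value reflects only how these samples vary, which may be technical in part.

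Quiescent lung fibroblasts hold the alveolar walls and the adventitia around vessels and airways. After injury some of them become contractile and secretory, under signals such as TGF-beta, and lay down collagen. Cthrc1 is a secreted glycoprotein with a short collagen-like repeat, and it promotes noncanonical Wnt signalling through Frizzled and Ror2. Adam12 is a membrane-anchored metalloprotease with a disintegrin domain. Lrrc15 is a membrane protein with leucine-rich repeats that TGF-beta induces in stromal cells, and Fap is a membrane serine protease closely related to Dpp4. Ltbp2 is a matrix protein of elastic fibres which, unlike other latent TGF-beta binding proteins, does not bind latent TGF-beta.

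In the GENCODE M21 annotation of GRCm38, Cthrc1 (ENSMUSG00000054196) lies at chr15:39076932-39087121 on the plus strand, and Fap (ENSMUSG00000000392) at chr2:62500943-62574075 on the minus strand. Adam12 (ENSMUSG00000054555) lies at chr7:133883199-134232146, Lrrc15 (ENSMUSG00000052316) at chr16:30269302-30283256 and Ltbp2 (ENSMUSG00000002020) at chr12:84783212-84876532, all on the minus strand. Values are FPKM, that is a gene's fragments scaled to the length of its exons and to the library's total, so levels of different genes can be compared. Of the 3 genes annotated over Adam12, only the noncoding Gm19514 and A130023I24Rik had values, at an FPKM of at most 0.0182 in every library. The noncoding gene within Ltbp2, D030025P21Rik, stood at 0.0721 to 0.295, far under Ltbp2 itself.

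Promoter sequences from RefSeq (GRCm38.p6) were at hand for Lrrc15 and Ltbp2, and they are shown because both genes moved with the challenge while their promoters differ in the motifs searched. Each line gives the bases upstream of the annotated starts, 5′ to 3′ on the gene's strand, with a motif match in capitals. Lrrc15 is shown over chr16:30283257-30283504 and Ltbp2 over chr12:84876533-84876741, both read from the minus strand.
Lrrc15: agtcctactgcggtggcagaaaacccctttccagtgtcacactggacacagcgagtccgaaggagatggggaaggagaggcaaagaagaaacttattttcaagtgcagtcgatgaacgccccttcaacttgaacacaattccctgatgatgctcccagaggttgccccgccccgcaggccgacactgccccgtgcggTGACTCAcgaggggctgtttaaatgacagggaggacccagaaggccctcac
Ltbp2: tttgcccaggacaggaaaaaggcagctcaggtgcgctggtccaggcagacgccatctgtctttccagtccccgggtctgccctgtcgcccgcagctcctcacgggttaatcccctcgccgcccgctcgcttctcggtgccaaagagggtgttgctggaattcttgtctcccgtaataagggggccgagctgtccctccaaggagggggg
The AP-1 motif of Fos and Jun factors (TGANTCA) began 53 bases before the RefSeq start of Lrrc15. It occurred in 7.81% of 32851 promoter windows of 300 bases (250 before and 50 after a start). The TEAD motif GGAATG (14.7% of windows), the RUNX motif TGTGGT (16.8%) and the SMAD motif CAGACA (21%), each searched on both strands, had no match in either gene's window, and AP-1 had none in that of Ltbp2. A match is a stretch of letters and not a measured binding site.

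Libraries held 16152379 to 21667129 counted fragments, and 14052 to 15020 genes reached an FPKM of 1. Lung epithelial markers (Sftpc, Sftpb, Scgb1a1, Ager and Foxj1) were present in every library, with a summed FPKM of 18174 to 37982 in ND-RHL, 6061 to 10434 in AE-PF and 38473 to 53747 in saline lung. ND-RHL library 4 and AE-PF library 2 stood apart by transcripts of other tissues. Stratified squamous epithelium markers summed to 5727 in the ND-RHL library and 1736 in the AE-PF library, and to at most 3.92 in the other 10. Skeletal muscle markers summed to 1683 in the ND-RHL library and 694 in the AE-PF library, and to at most 131 elsewhere. Results are therefore also given without these libraries.

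Cthrc1, the gene that gives this cell state its name, stood far higher in AE-PF lung than in either other group. Its FPKM was 2.97, 5.09, 2.23 and 1.66 in ND-RHL libraries 1 to 4. It was 33.6, 50, 19.9 and 16.9 in AE-PF libraries 1 to 4, against 2.29, 2.61, 2.3 and 2.07 in saline libraries 1 to 4. The lowest AE-PF library thus stood well above every ND-RHL and saline library, and ND-RHL and saline values overlapped. Behind these values stood 46 to 131 fragments per ND-RHL library, 486 to 1438 per AE-PF library and 54 to 79 per saline library.

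Adam12, the metalloprotease, had an FPKM of 0.629, 0.709, 0.395 and 0.837 in ND-RHL libraries 1 to 4. It reached 5.27, 9.48, 2.75 and 2.63 in AE-PF lung, against 0.620, 0.306, 0.324 and 0.555 in saline lung. AE-PF values did not overlap with those of either other group, while ND-RHL and saline values interleaved.

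Lrrc15 was nearly silent outside AE-PF lung. Its FPKM was 0.145, 0.0816, 0.0291 and 0.0650 in ND-RHL lung, which corresponds to 14, 7, 3 and 6 fragments. In AE-PF lung it was 2.93, 6.33, 1.98 and 0.884 (265, 607, 178 and 85 fragments), against 0.0869, 0.0102, 0.0374 and 0.104 in saline lung (10, 1, 4 and 9 fragments). AE-PF libraries were all higher than the rest, and they differed 7.15-fold between the highest and the lowest. Saline library 2 lay under a floor of 3 fragments, so its value cannot be told from 0.

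Fap, the serine protease often used to image fibrosis, was low everywhere and its groups overlapped. It had an FPKM of 0.922, 0.492, 0.437 and 1.12 in ND-RHL lung and of 1.13, 1.05, 0.835 and 0.556 in AE-PF lung. Saline lung held 0.750, 0.381, 0.473 and 0.832. Between 40 and 110 fragments lay behind each value.

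Ltbp2, the elastic fibre protein, was the most abundant of the 5 in every group. Its FPKM was 26.5, 45.3, 24.2 and 23.4 in ND-RHL lung. AE-PF libraries held 117, 93.0, 104 and 121, against 25.7, 27.4, 20.6 and 18.2 in saline lung. AE-PF values were again apart from both other groups, and ND-RHL library 2 was the only library between them.

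**Figure D1:**
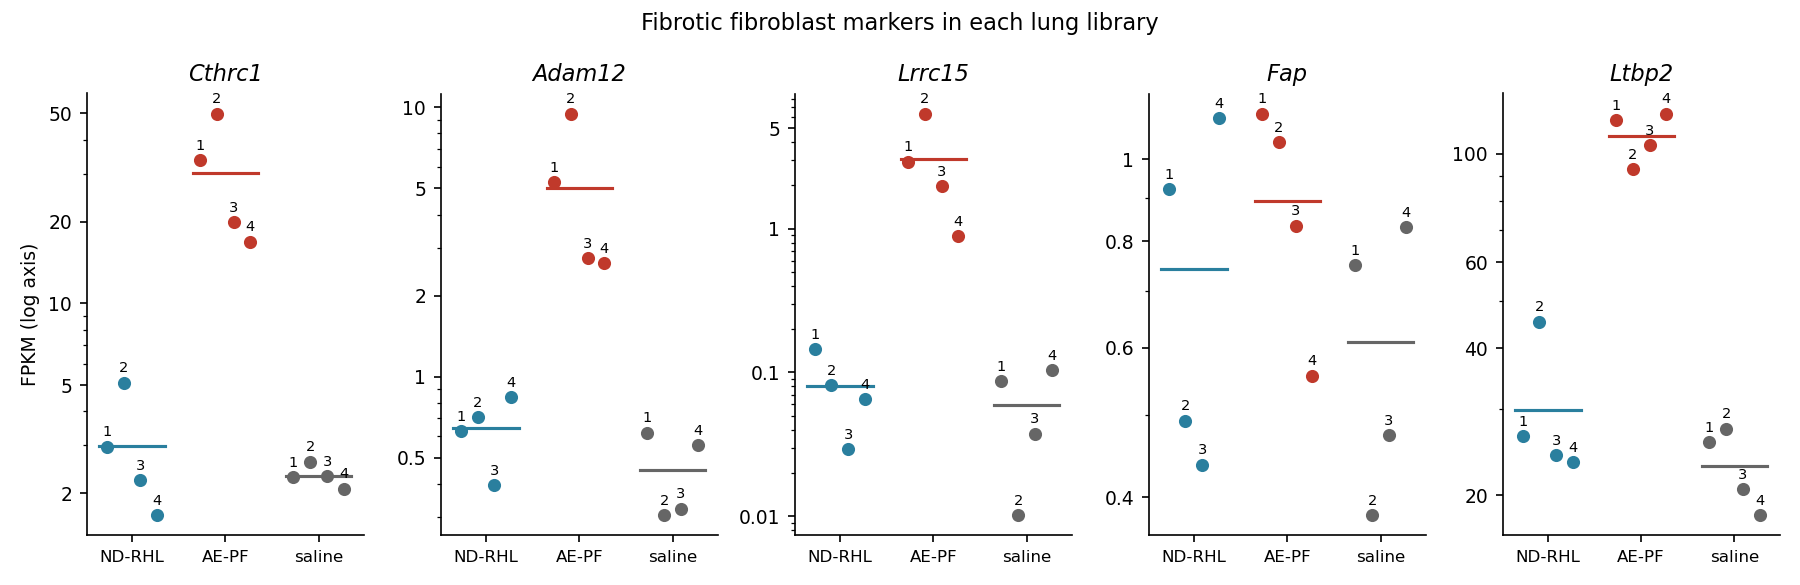
FPKM of each marker (log axis, with its own range per gene) in the 12 lung libraries; points are libraries, numbered as in the labels, and lines are group means. In AE-PF lung Cthrc1, Adam12, Lrrc15 and Ltbp2 lie above every ND-RHL and saline library, while Fap overlaps between all 3 groups.

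The order of levels differed between groups. In ND-RHL lung mean FPKM ran from Ltbp2 (29.8 ± 10.4) over Cthrc1 (2.99 ± 1.5), Fap (0.742 ± 0.331) and Adam12 (0.642 ± 0.186) to Lrrc15 (0.0801 ± 0.0484; SD, n = 4). In AE-PF lung the order ran from Ltbp2 (109 ± 12.7) over Cthrc1 (30.1 ± 15.1), Adam12 (5.04 ± 3.21) and Lrrc15 (3.03 ± 2.35) to Fap (0.892 ± 0.256). Adam12 and Lrrc15 overlapped there, as did Lrrc15 and Fap. Saline lung had the order of ND-RHL lung, at 23.0 ± 4.27, 2.32 ± 0.220, 0.609 ± 0.216, 0.451 ± 0.160 and 0.0595 ± 0.0433. Fap and Adam12 overlapped in ND-RHL and in saline lung.

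AE-PF was first set against saline lung, which asks what the challenge did. Cthrc1, Adam12, Lrrc15 and Ltbp2 rose in AE-PF lung, and Fap did not pass the test. The ratio of mean FPKM in AE-PF to that in saline lung was 13.0 for Cthrc1, 11.2 for Adam12, 50.9 for Lrrc15, 4.74 for Ltbp2 and 1.46 for Fap. In whole-lung RNA, more cells of a type and more RNA per cell cannot be told apart. Without AE-PF library 2 the ratio of Lrrc15 was 32.5. Its 4 AE-PF libraries held 1135 fragments in all, against 24 in saline lung, and the ratio of fragments per counted fragment was 51.7 (exact 95% interval 34.6 to 81.1, for counting error only, so that it does not cover the spread between libraries).

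Tests were made on log2(FPKM + 1), a scale that shrinks the change of low genes, among 15164 genes that reached an FPKM of 1 in 4 or more libraries. Cthrc1 rose by 3.10 ± 0.32 log2 (SE; adjusted p = 1.65e-05, limma), Ltbp2 by 2.21 ± 0.20 (adjusted p = 7.06e-06) and Adam12 by 1.92 ± 0.28 (adjusted p = 0.000177). Adam12 met the filter through the AE-PF libraries alone. Fap and Lrrc15 missed it, each with 3 libraries at an FPKM of 1 or more, and were tested in a fit with no filter over 35599 genes. There Lrrc15 rose by 1.75 ± 0.31 (adjusted p = 0.0016). Fap differed by 0.23 ± 0.16, with a 95% interval of -0.11 to 0.58 and an adjusted p of 0.348. Cthrc1 and Ltbp2 met the filter in every group and were both called higher, as were 26.4% of all genes tested. The call of Adam12 is not set against that share, since the filter took it for its AE-PF level. In the fit with no filter, which holds all 5 genes, 4 were called higher, as were 12.5% of all genes. Cthrc1 and Ltbp2 had AE-PF libraries all above the saline libraries, as had 25.3% of the filtered genes. Adam12 and Lrrc15 had this arrangement too. They are not set against that share, since Adam12 met the filter by its AE-PF level and Lrrc15 missed it. For each of the 4 genes the exact permutation p was 0.0286, the smallest that 4 against 4 libraries can give.

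The second comparison asked what the liposomes changed in challenged lung. The same 4 genes fell in ND-RHL lung, and Fap did not pass. Mean FPKM in ND-RHL lung was 9.93% of that in AE-PF lung for Cthrc1, 12.8% for Adam12, 2.64% for Lrrc15, 27.4% for Ltbp2 and 83.2% for Fap. Without AE-PF library 2 it was 4.15% for Lrrc15. Cthrc1 fell by 2.91 log2 (SE 0.32, adjusted p = 8.21e-05), Ltbp2 fell by 1.88 (SE 0.20, adjusted p = 6.62e-05) and Adam12 fell by 1.74 (SE 0.28, adjusted p = 0.000768). Without the filter Lrrc15 fell by 1.72 (SE 0.31, adjusted p = 0.00361). The change of Fap was -0.13 ± 0.16 (95% interval -0.47 to 0.22, adjusted p = 0.633). Cthrc1 and Ltbp2 were both called lower with the filter, as were 17.4% of all genes tested, and Adam12 is again not set against that share. With no filter 4 of the 5 genes were called lower, as were 7.29% of all genes. ND-RHL libraries lay entirely below AE-PF libraries for Cthrc1 and Ltbp2, as for 15.6% of the filtered genes. The same held for Adam12 and Lrrc15, which are again not set against that share. This comparison and the first share the AE-PF libraries, so their opposite signs are not independent.

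The third comparison asked what difference from saline lung was left after treatment. None of the 5 genes passed at an adjusted p under 0.05 by limma, where 21.9% of all genes tested with the filter and 6.9% of those without did. At an unadjusted p under 0.05 the count of members was 0 as well. The share of all genes at that threshold is not given here, so that count is not set against a share. Nor did the ND-RHL and saline libraries of any member separate. Among the filtered genes, which leave out Lrrc15 and Fap, 29.9% separated. Changes of ND-RHL against saline lung were 0.20 ± 0.32 log2 for Cthrc1 (95% interval -0.50 to 0.89), 0.18 ± 0.28 for Adam12 (-0.44 to 0.80) and 0.33 ± 0.20 for Ltbp2 (-0.10 to 0.76). For Lrrc15 the change was 0.03 ± 0.31 (-0.66 to 0.71) and for Fap 0.10 ± 0.16 (-0.24 to 0.45). Adjusted p were 0.696, 0.689, 0.258, 1.0 and 0.774 in that order. These intervals leave room for a remaining rise of 1.7-fold for Ltbp2, 1.74-fold for Adam12 and 1.86-fold for Cthrc1 on the log2(FPKM + 1) scale. Adam12, Lrrc15 and Fap had mean saline levels under the added 1, so their intervals leave room for a larger rise in FPKM itself. The genes were thus not shown to be back at saline level.

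**Figure D2:**
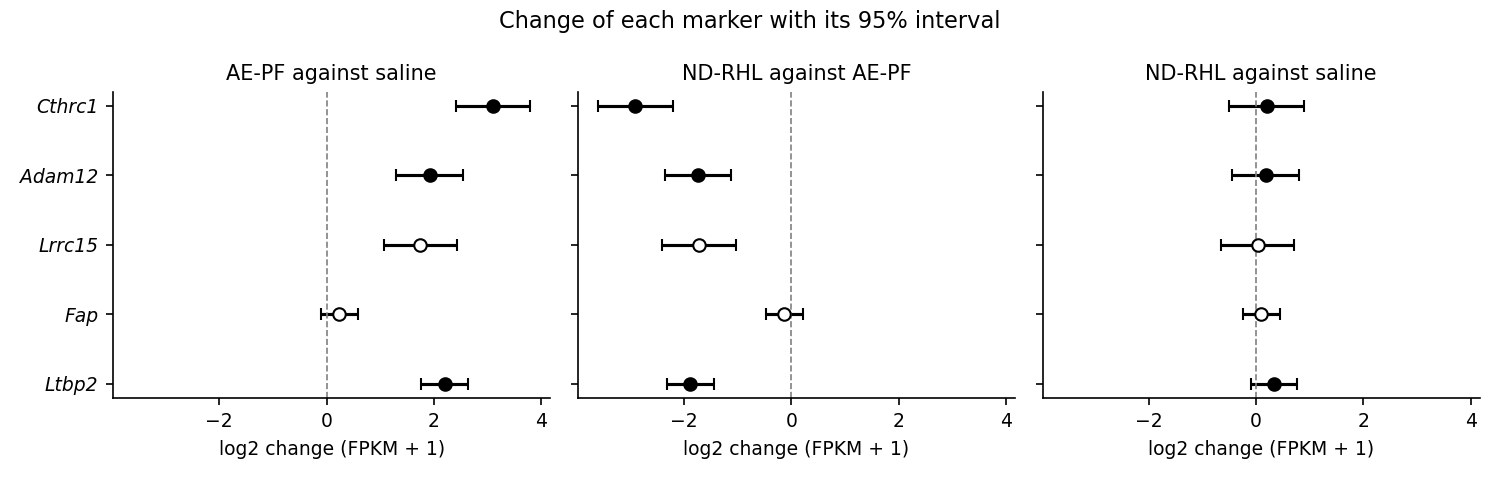
Log2 change of each marker on the log2(FPKM + 1) scale in the 3 comparisons, with 95% intervals from limma; filled points come from the fit with the FPKM filter and open points from the fit with no filter. The intervals of Cthrc1, Adam12, Lrrc15 and Ltbp2 exclude 0 in AE-PF against saline and in ND-RHL against AE-PF, and all 5 intervals include 0 in ND-RHL against saline.

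Fap differed from the other 4 genes in how far it moved. The log2 ratio of 2 members within a library, each with 1 added to its FPKM, was compared for 10 pairs in the first 2 comparisons by exact 2-sided permutation tests, adjusted over the 20 tests. In AE-PF lung the ratio of Cthrc1 to Fap was 3.92 ± 0.53, against 1.05 ± 0.28 in saline lung (SD, n = 4; exact p = 0.0286, adjusted p = 0.044). In ND-RHL lung this ratio was 1.14 ± 0.70, lower than in AE-PF lung (exact p = 0.0286, adjusted p = 0.044). The ratios of Adam12, Lrrc15 and Ltbp2 to Fap gave the same p in both comparisons, all higher in AE-PF lung, also with a pseudocount of 0.1 (adjusted p = 0.0476). Among the pairs without Fap, only the ratio of Cthrc1 to Ltbp2 in ND-RHL against AE-PF lung passed with both pseudocounts. It was lower by 1.03 log2 in ND-RHL lung, at -2.97 ± 0.17, against -1.94 ± 0.81 in AE-PF lung.

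AE-PF libraries differed in the level of 3 of these genes far more than in that of Ltbp2. Cthrc1, Adam12 and Lrrc15 had the same order, with library 2 highest, then 1, 3 and 4. Their highest value was 2.96, 3.60 and 7.15 times their lowest, whereas for Ltbp2 the factor was 1.3 and library 2 was the lowest. Fap ran in the order 1, 2, 3, 4 and spanned 2.03-fold. AE-PF library 2, highest for 3 genes, is also the AE-PF library with squamous and muscle transcripts. ND-RHL library 4 held more of both, and there Cthrc1 and Ltbp2 had their lowest ND-RHL values, while Adam12 and Fap had their highest. Without both libraries Cthrc1 rose by 2.82 ± 0.25 log2 in AE-PF against saline lung and Ltbp2 by 2.28 ± 0.21, and in the fit with no filter Adam12 rose by 1.61 ± 0.19 and Lrrc15 by 1.41 ± 0.20 (adjusted p = 1.97e-05, 2.43e-05, 0.000352 and 0.000888). In ND-RHL against AE-PF lung the same fits gave -2.46, -1.86, -1.49 and -1.37 (adjusted p = 0.000238, 0.000384, 0.00206 and 0.00334).

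**Figure D3:**
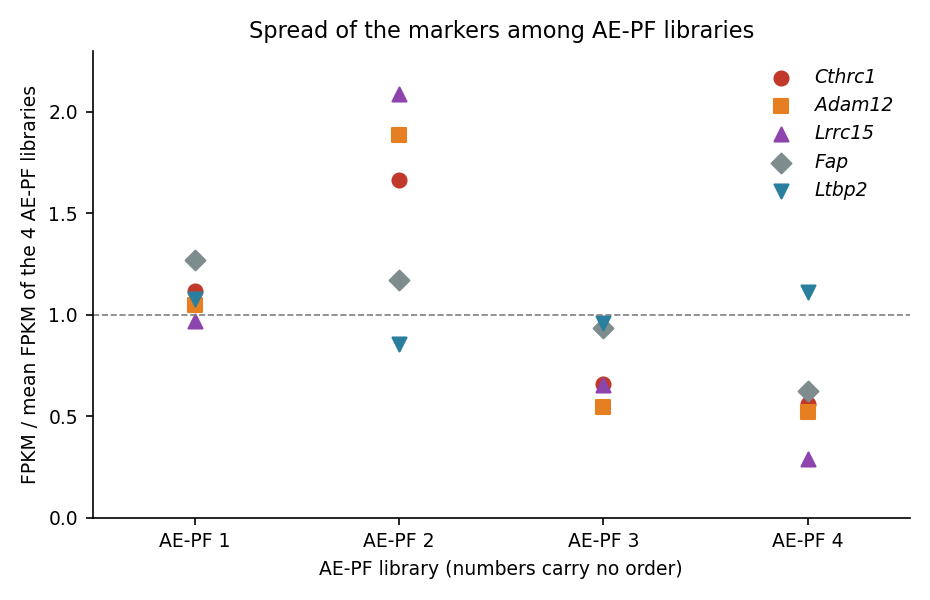
FPKM of each marker in the 4 AE-PF libraries, divided by the mean of the 4 for that gene; the dashed line marks the mean. Cthrc1, Adam12 and Lrrc15 are highest in library 2 and low in libraries 3 and 4, whereas Ltbp2 is lowest in library 2 and stays near 1.

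Markers of other tissues also moved with Fap inside 2 of the groups. In ND-RHL libraries 1 to 4 Fap was 0.922, 0.492, 0.437 and 1.12 beside adipocyte sums of 871, 20.6, 99.0 and 354 and cartilage sums of 8.21, 0.304, 0.182 and 3.98. In saline libraries 1 to 4 it was 0.750, 0.381, 0.473 and 0.832 beside a summed adipocyte marker FPKM of 655, 182, 126 and 489 and a cartilage marker sum of 14.8, 1.2, 0.0995 and 8.67. Libraries 1 and 4 were thus higher than 2 and 3 in all 3 measures and in both groups. In saline lung Adam12 (0.620, 0.306, 0.324 and 0.555) and Lrrc15 (0.0869, 0.0102, 0.0374 and 0.104) had this arrangement too. Lrrc15 rested there on 1 to 10 fragments per library. Cthrc1 and Ltbp2 did not have it in saline lung, and neither Adam12 nor Lrrc15 had it in ND-RHL lung. AE-PF libraries had adipocyte sums of 2.29 to 27.2 and cartilage sums of 0.571 to 0.789 beside Fap at 0.556 to 1.13. Of the 7 adipocyte markers 6 could be tested, and all 6 were lower in AE-PF than in saline lung, as were 30.2% of all genes tested. The adipocyte list was chosen after the values had been seen, and the part of these tissues in the Fap, Adam12 and Lrrc15 values was not tested.

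Other genes known from fibrotic fibroblasts mostly moved as the 4 markers did. Of 16 listed genes 14 were tested, and of these 12 rose and 0 fell in AE-PF against saline lung. Comp and Tagln missed the filter, so neither is in these counts. Comp averaged 0.42 ± 0.143 in AE-PF lung and 1.72 ± 1.71 in saline lung, and Tagln 0.401 ± 0.168 and 0.255 ± 0.0884. Among all genes tested 26.4% rose and 30.2% fell. The median change was 1.58 log2 beside -0.03 for all genes. Inhba, among the 12, met the filter only with its AE-PF libraries counted, so its calls are not set against the shares of all genes. Sfrp1, a secreted Wnt inhibitor, averaged 126 ± 34.2 in AE-PF lung and 8.49 ± 0.998 in saline lung (adjusted p = 7.55e-07). The matricellular genes Tnc (96.8 ± 20.4 against 4.71 ± 0.827) and Thbs2 (15.9 ± 5.82 against 0.999 ± 0.365) rose as well, with adjusted p of 2.71e-06 and 4.53e-06. Fst, an activin inhibitor, stood at 21.1 ± 6.63 in AE-PF lung and 1.87 ± 0.353 in saline lung (adjusted p = 2.76e-06). Aspn (19.3 ± 8.48 and 11.7 ± 2.0) and Acta2, the actin of contractile cells (225 ± 87.1 and 195 ± 19.6), did not pass, and both are named after their values were seen. In ND-RHL against AE-PF lung 12 of the 14 fell and 0 rose, where 17.4% of all genes fell and 24.3% rose. The median was -1.61 beside 0.06 for all genes. Against saline lung, 2 of the 14 passed in ND-RHL lung, no larger a share than the 21.9% of all genes that did. They were Tnc, at 12.0 ± 6.62 against 4.71 ± 0.827 (adjusted p = 0.0313), and Sfrp1, at 15.2 ± 3.88 against 8.49 ± 0.998 (adjusted p = 0.0254). With ND-RHL library 4 and AE-PF library 2 left out, 12 again rose in AE-PF against saline and 12 fell in ND-RHL against AE-PF lung, and 0 passed in ND-RHL against saline lung.

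Genes of quiescent alveolar fibroblasts took the opposite course. Of 10 tested, 9 fell and 0 rose in AE-PF against saline lung, where 30.2% of all genes fell, with a median of -1.13 log2. In ND-RHL against AE-PF lung 8 rose, where 24.3% of all genes did, and 1 fell, with a median of 1.12. Without the 2 libraries that stood apart, 9 fell in the first of these comparisons, and 9 rose and 1 fell in the second. The amino acid transporter gene Slc7a10 averaged 10.1 ± 2.48 in ND-RHL, 0.626 ± 0.620 in AE-PF and 14.6 ± 0.437 in saline lung, and the methyltransferase gene Inmt 572 ± 174, 110 ± 41.6 and 945 ± 67.8. Itga8, an integrin subunit, averaged 47.7 ± 8.33, 23.9 ± 2.91 and 56.4 ± 4.03 in the same order, and the receptor gene Fgfr4 10.0 ± 2.02, 3.93 ± 0.928 and 14.6 ± 0.854. Adjusted p of these 4 genes were at most 1.6e-05 in AE-PF against saline and at most 0.0002 in ND-RHL against AE-PF lung. The gene that fell in ND-RHL against AE-PF lung was Pdgfra, a receptor of PDGF, named after its values were seen. It stood at 35.8 in ND-RHL, 54.3 in AE-PF and 51.6 in saline lung (adjusted p = 0.0097 against AE-PF). In ND-RHL against saline lung 2 of the 10 were lower and 0 higher, where 21.9% of all genes passed. They were Fgfr4 (adjusted p = 0.0268) and Pdgfra (adjusted p = 0.0261), and the median of the list was -0.35 log2. Of 10 adventitial fibroblast genes 2 rose and 4 fell in AE-PF against saline lung, near the 26.4% and 30.2% of all genes. In ND-RHL against AE-PF lung 3 rose and 1 fell, near the 24.3% and 17.4% of all genes. Gsn averaged 1153 ± 216 in ND-RHL, 364 ± 25.5 in AE-PF and 1521 ± 81.6 in saline lung, and Clec3b 122 ± 15.6, 38.6 ± 10.7 and 128 ± 14.0. Cd34 went the other way, at 26.6 ± 1.87, 33.9 ± 7.03 and 19.2 ± 0.575. For AE-PF against saline their adjusted p were 1.34e-06, 1.45e-05 and 0.000482 in that order. Dcn, a collagen-binding proteoglycan of fibroblasts in general, did not pass, at 58.5, 57.1 and 56.1 in ND-RHL, AE-PF and saline lung (adjusted p = 0.964 for AE-PF against saline). It was also named after its values were seen.

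**Figure D4:**
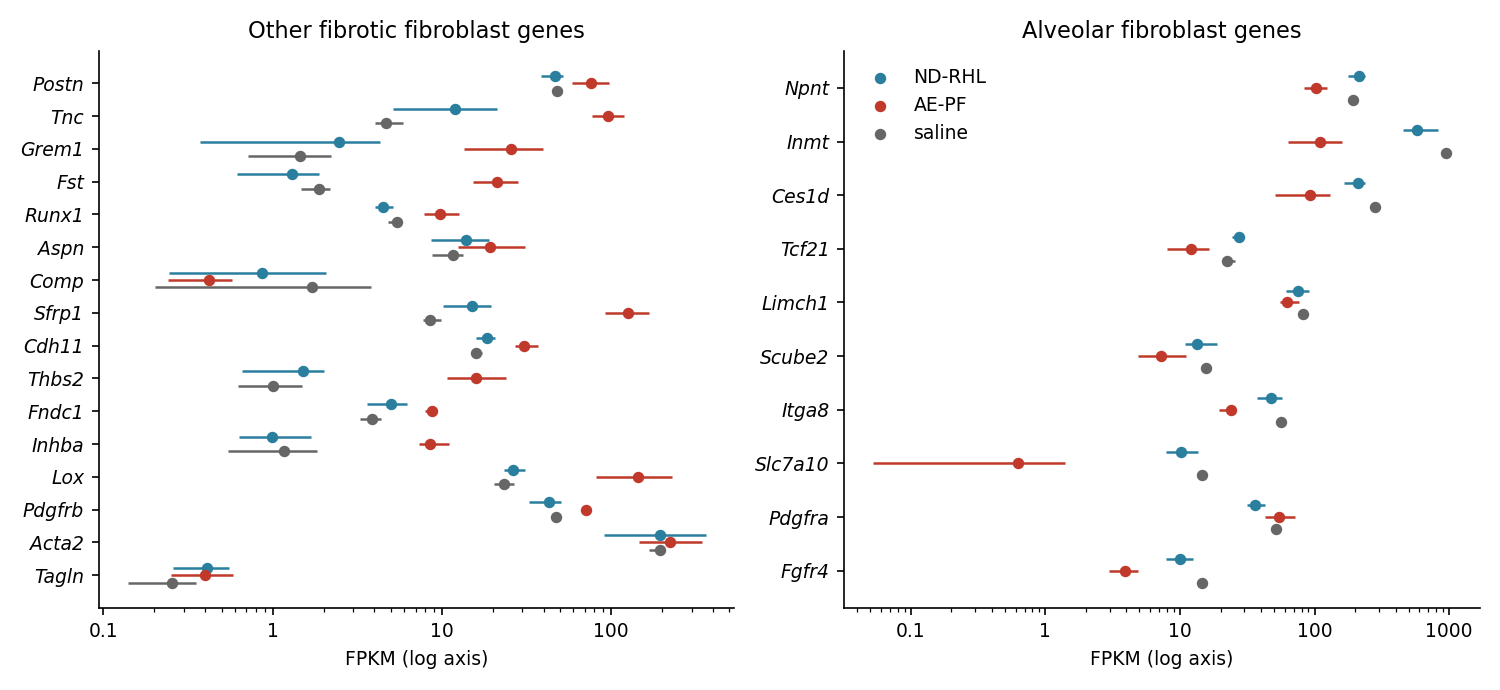
Mean FPKM (points, log axis) and range over 4 libraries (lines) of other fibrotic fibroblast genes and of alveolar fibroblast genes in ND-RHL, AE-PF and saline lung. Most genes on the left, such as Sfrp1 and Tnc, are highest in AE-PF lung, and most on the right, such as Slc7a10 and Inmt, are lowest there.

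Among 14 genes of noncanonical Wnt signalling, in which Cthrc1 acts, 5 rose and 3 fell in AE-PF against saline lung, near the 26.4% and 30.2% of all genes that did. The receptor gene Ror2, a partner of Cthrc1, averaged 4.68 ± 0.973 in AE-PF lung and 1.39 ± 0.137 in saline lung (adjusted p = 2.01e-05), and Ror1 5.03 ± 1.00 and 2.37 ± 0.120 (adjusted p = 6.19e-05). The ligand gene Wnt5a stood at 6.00 ± 0.250 and 2.92 ± 0.318 (adjusted p = 8.46e-05). Celsr1, a cadherin of planar polarity, fell to 2.87 ± 0.377 in AE-PF lung, against 5.47 ± 0.299 in saline lung (adjusted p = 2.23e-05). In ND-RHL against AE-PF lung 3 of the 14 rose and 5 fell, where 24.3% of all genes rose and 17.4% fell. Ror2 averaged 1.41 ± 0.350 in ND-RHL lung. Medians of the list lay between -0.05 and 0.09 log2.

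The relatives of the other members were split, and their counts stand beside 26.4% of all genes higher and 30.2% lower in AE-PF against saline lung, and 24.3% higher and 17.4% lower in ND-RHL against AE-PF lung. All 10 ADAM genes tested passed in AE-PF against saline lung, 7 higher and 3 lower, and in ND-RHL against AE-PF lung 3 were higher and 7 lower. Adam23, among the 7 in each, met the filter only with its AE-PF libraries counted, so its calls are not set against those shares. Adam9 averaged 100 ± 8.17 in AE-PF and 50.1 ± 1.28 in saline lung, and Adam22, a relative without protease activity, 0.528 ± 0.114 and 1.31 ± 0.0288. Adam12 itself had a ratio of means of 11.2. Of 5 dipeptidyl peptidase relatives of Fap 0 rose and 2 fell in AE-PF against saline lung, a share of falls near that of all genes. Dpp4, its closest relative, averaged 23.4 ± 3.26 in ND-RHL, 9.26 ± 4.09 in AE-PF and 20.2 ± 0.791 in saline lung (adjusted p = 0.0019 for AE-PF against saline). Of 5 latent TGF-beta binding protein and fibrillin genes related to Ltbp2, 4 rose and 1 fell. Fbn2, among the 4, met the filter through the AE-PF libraries alone, so its call is not set against the share of all genes. Fbn1, the main fibrillin, averaged 111 ± 26.8 in AE-PF and 21.5 ± 1.42 in saline lung, while Ltbp4 fell to 60.4 ± 1.78 in AE-PF lung, against 138 ± 13.5 in saline lung. Of 6 TGF-beta ligand and receptor genes 5 were higher and 1 was lower in AE-PF than in saline lung, and 4 fell and 0 rose in ND-RHL against AE-PF lung. Among markers of other lung cells, in AE-PF against saline lung, 2 of 4 mesothelial genes rose, 3 of 5 smooth muscle genes fell and 4 of 5 epithelial genes fell. All 5 cardiac muscle genes, a list chosen after the values were seen, fell too. None of the 4 skeletal muscle genes passed.

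Genes whose levels ran most like those of the members over the 12 libraries were sought among all filtered genes. Differences between the groups enter this likeness, as does the spread within them, and it is given as a description. For the mean log2 level of the 5 genes the closest were Megf10 (r = 0.998), Col5a1 (0.997), Ssc5d (0.997), Gcnt4 (0.995) and Adamts12 (0.995). Cthrc1 ran closest to Vim and Bmp1 (0.994 each), Adam12 to Fkbp5 and Loxl2 (0.993 each), Lrrc15 to Hhipl1 (0.987) and Epha3 (0.983) and Ltbp2 to Megf11 (0.987) and Col4a1 (0.986). For Fap the closest were Nrip1 (0.912) and Prr5 (0.911). After group means were removed the values for these genes lay between 0.79 and 0.98, with 0.91 for Nrip1 and 0.89 for Prr5. Fkbp5 averaged 3.24 ± 0.849 in ND-RHL, 24.1 ± 15.2 in AE-PF and 2.57 ± 0.250 in saline lung, and Bmp1 11.1 ± 1.49, 24.0 ± 5.91 and 10.0 ± 0.235.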

How the data were processed

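Polyadenylated RNA of 12 mouse lung samples was sequenced, per the labels' protocols. The authors deposited 1 table of FPKM values for 35599 genes, without pooling of replicates. Per the submitters' processing notes, the aligner STAR 2.7.9a and the counter featureCounts were among the tools, and the builds were GRCm38 and mm10. How multi-mapping reads and strand were handled is not given in these sources. Of 34725 genes matched by identifier to GENCODE M21 (GRCm38), 731 had the table's start, so positions are from GENCODE.

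Fragments were recovered from the FPKM values: a library total and gene length that turned values into whole fragments, within 1e-05, were found for 35599 genes. A floor of 3 fragments corresponds to an FPKM of 0.14 to 0.19 for a gene of 1 kb. Intervals and floors cover counting error only.

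The FPKM were log2-transformed after adding 1 and tested in limma 3.58.1 (R 4.3.3), with a trended variance, 12 libraries in 1 fit, 2-sided tests and Benjamini-Hochberg adjustment over all genes tested. A gene was called at an adjusted p under 0.05. Adjusted p-values of genes come from limma throughout. The scripts were tested on simulated data.

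Members, lists and tests were chosen with earlier results of these data known. Named genes are the members, up to 4 genes per list with the smallest p in AE-PF against saline, and the genes most like the members. Alternatives covered the pseudocount, filter, scaling, weights, trend, limma-voom on recovered fragments, pairing by number and left-out libraries. Deviations of same-numbered ND-RHL and saline libraries from their group means had correlations of 0.40, 0.19, 0.11 and 0.17 for numbers 1 to 4. Libraries with different numbers were not compared, so these values cannot show that the numbers pair them. The labels do not say what a number shares. The main fit held no pairing, which entered only as an alternative. For AE-PF with either group at least 1 correlation was negative.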

Additional observations from a re-analysis of the deposited data

Results flagged for a closer look

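Ltbp2 stood at an FPKM of 45.3 in ND-RHL library 2, and at 26.5, 24.2 and 23.4 in the other ND-RHL libraries. The gap to the nearest library took 0.861 of the group's range, above the 95% critical value of Dixon's test for 4 samples. It was the only such value among 27 groups of 4 libraries examined (5 members and 4 other fibrotic fibroblast genes), and chance flags about 5% of such groups. In that library Cthrc1 was also the highest of its group, at 5.09, while Lrrc15 (0.0816) and Fap (0.492) were not. Without ND-RHL library 2, Ltbp2 differed by 0.12 ± 0.14 log2 from saline lung (adjusted p = 0.6, limma) and by -2.09 ± 0.14 from AE-PF lung (adjusted p = 1.48e-05).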

How the results depend on the processing

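Cthrc1, Ltbp2, Adam12 and Lrrc15 kept their direction and their side of the threshold in AE-PF against saline and in ND-RHL against AE-PF lung under every alternative that could test them, and no member passed in ND-RHL against saline lung under any. Adam12 missed the filter, and the members called with it numbered 2 and not 3, when any AE-PF library was left out or an FPKM of at least 5 was asked for. In the fit with no filter Adam12 was called in all 13 fits that left out libraries (1.61 to 2.12 log2 in AE-PF against saline). Pairing by replicate number (the replicate block) left 2916 genes called in ND-RHL against saline lung, 8471 in AE-PF against saline and 6061 in ND-RHL against AE-PF, beside 3323, 8578 and 6332 without it, and changed no call of a member.

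The uncalled change of Cthrc1 in ND-RHL against saline lung turned to -0.03 without ND-RHL replicate 2, and ran from -0.03 to 0.37 over the fits that left out 1 library. Genes called in AE-PF against saline numbered 5710 at an FPKM of at least 5, where fewer genes were tested. In ND-RHL against saline the number ran from 2008 to 3953 when 1 library was left out, with 2008 and 2083 without saline replicates 2 and 1.

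Ratios between members other than Fap depended on the pseudocount. At 0.1 the ratio of Cthrc1 to Adam12 no longer passed (0.44 in AE-PF against saline, -0.64 in ND-RHL against AE-PF), and that of Cthrc1 to Ltbp2 passed in AE-PF against saline (1.26). The ratio of Cthrc1 to Lrrc15 reversed to -0.51 and 0.57 and no longer passed, and that of Adam12 to Lrrc15 reversed to -0.95 and 1.21 and passed. The ratios of Adam12 to Ltbp2 (0.82 and -0.72) and of Lrrc15 to Ltbp2 (1.77 and -1.93) reversed without passing in either setting. A pseudocount of 1 exceeds the levels of Lrrc15 and Adam12 outside AE-PF lung. The cause of these changes was not tested.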
